A study of Homo sapiens with 6 samples.

Results

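The prostaglandin synthesis genes examined here are 10 genes, taken by their symbols from the 54259 genes of the count table: PLA2G4A, PTGS1, PTGS2, PTGES, PTGES2, PTGES3, PTGIS, PTGER2, PTGER4 and HPGD. All 10 were listed. The libraries come from the breast cancer line MDA-MB-231, in 2 groups of 3. They were made to compare cells with and without knockdown of brachyury, a T-box transcription factor. The shBry group expresses a hairpin directed at brachyury, and the shNC group a negative control hairpin. The MDA-MB-231 line was established from a human breast carcinoma, is mesenchymal in phenotype, and is the source of all 6 libraries. Neither the labels nor the methods give the hairpin sequences, the time after transduction, or whether the replicates were separate cultures, so that the p-values measure only the spread between these libraries.

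Prostaglandins are lipid signals made on demand from arachidonic acid. A phospholipase frees the acid from membrane lipids, a cyclooxygenase turns it into prostaglandin H, and a terminal synthase makes the active product, such as prostaglandin E or prostacyclin. COX-1, encoded by PTGS1, is present in many cells at rest, whereas COX-2, encoded by PTGS2, is induced by inflammatory and growth signals and is raised in many carcinomas. Prostaglandin E acts through G protein-coupled receptors of the EP family, and the dehydrogenase encoded by HPGD ends its action.

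The libraries held between 19319411 and 22985371 counts in shBry and between 19684251 and 21718591 in shNC. A count of 0 therefore allows up to 0.155 CPM (counts scaled to a total of 1000000 per library) in the smallest library, at 3 counts of its total and for counting error only. Brachyury, listed under its older symbol T, was at 0 counts in all 6 libraries, those of shNC included, and offered no check of the labels. A lowering of its transcript by the hairpin could therefore not be seen. The paper describes brachyury as overexpressed in this line, which these counts did not show. The deposited design text names pericardial RNA, while the labels name breast cancer cells. All 7 mesenchymal markers fixed for MDA-MB-231 cells, among them VIM and AXL, were above 1 CPM in each library. Their log2 fold changes of shBry relative to shNC went both ways. CAV1 (-1.11), MSN (-0.47), SPARC (-0.47) and VIM (-0.27) were lower in shBry. AXL (0.33), CD44 (0.34) and ZEB1 (0.67) were higher. All 5 heart muscle and all 6 leukocyte markers were below 1 CPM in each library, with summed levels between 0 and 0.183 CPM and between 0 and 0.229 CPM. The 4 endothelial markers and 4 of 5 fibroblast markers (all but COL1A1) were below 1 CPM in each library as well. The endothelial markers summed to between 0.431 and 0.665 CPM in shBry and between 1.0 and 1.23 CPM in shNC. Of 6 luminal breast markers, ESR1, PGR and CDH1 were below 1 CPM in each library, and GATA3 and FOXA1 were above it. The other luminal marker, EPCAM, had 4.28 ± 0.681 CPM in shBry and 1.55 ± 0.513 CPM in shNC (SD, n = 3) and was 2.77-fold higher in shBry (edgeR adjusted p = 0.00034). Summed, the luminal markers were between 22.7 and 23.9 CPM in shBry and between 15.8 and 19 CPM in shNC. The 5 mesothelial and pericardial markers summed to between 51.4 and 57.7 CPM in shBry and between 40.2 and 42.1 CPM in shNC, most of it MSLN. CALB2 had 1.37, 1.37 and 11.1 CPM in shNC replicates 1, 2 and 3 and 0.81 ± 0.284 CPM in shBry. It was lower in shBry, with a log2 fold change of -2.52 (edgeR adjusted p = 0.0073). MSLN (0.52, edgeR adjusted p = 0.0012) and LRRN4 (0.76, edgeR adjusted p = 0.0048) were higher in shBry. The part of these markers in the results below was not tested.

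The cyclooxygenase genes moved in opposite directions, and the sequences in front of their start sites are given here because they are the pair on which the comparison turns. They are the 250 bases before the RefSeq start of each gene on GRCh38.p14, written 5′ to 3′ along the gene. Capitals mark matches on either strand to TATAAA (the TATA box), CGTCA (the core of the cyclic AMP response element) and GGGCGG (the box bound by Sp1), which do not overlap each other here.
PTGS2, minus strand, chr1:186680424-186680673: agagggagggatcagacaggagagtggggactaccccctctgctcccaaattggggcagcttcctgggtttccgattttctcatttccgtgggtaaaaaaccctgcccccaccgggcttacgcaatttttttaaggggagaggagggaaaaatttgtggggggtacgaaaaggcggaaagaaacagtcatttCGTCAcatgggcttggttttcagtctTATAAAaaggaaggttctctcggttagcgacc
PTGS1, plus strand, chr9:122370283-122370532: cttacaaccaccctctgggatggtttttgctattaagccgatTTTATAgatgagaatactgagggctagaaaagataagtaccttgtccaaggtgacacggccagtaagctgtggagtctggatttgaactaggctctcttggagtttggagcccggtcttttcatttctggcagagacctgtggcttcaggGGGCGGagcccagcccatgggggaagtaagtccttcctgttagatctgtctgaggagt
In PTGS2 the TATAAA match began 32 bases and the CGTCA match 58 bases before the start, and GGGCGG was not found. In PTGS1 the TATAAA letters were found on the opposite strand only, 208 bases before the start, with GGGCGG 58 bases before it and no CGTCA. Among 35116 promoter windows of this length, 10.7% held TATAAA, 21.2% CGTCA and 42.6% GGGCGG. Among the other prostaglandin genes, CGTCA was also found before PTGES3 and PTGER2, neither of which rose in shBry. These matches describe the letters only, and a relation to the direction of change was not tested.

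PTGS2 was the one prostaglandin gene called higher in shBry. The gene spans chromosome 1 between 186671791 and 186680427 (GRCh38, minus strand). It had 53, 137 and 121 counts in shBry replicates 1, 2 and 3 and 10, 5 and 16 counts in shNC replicates 1, 2 and 3. After normalization with edgeR's TMM method these were 2.85, 5.77 and 5.36 CPM in shBry and 0.458, 0.236 and 0.801 CPM in shNC. Every shBry library was above every shNC library, and shBry replicate 1 was the lowest of its group. PTGS2 rose from 0.499 ± 0.285 CPM in shNC to 4.66 ± 1.58 CPM in shBry (SD, n = 3), which is 9.40-fold, or 3.23 on the log2 scale (SE 0.38, adjusted p = 7.0e-06 by the quasi-likelihood test of edgeR, Benjamini-Hochberg over all genes tested). Of the 15277 genes tested, 0.589% had a log2 fold change at least as high. The gene passed the filter on low counts through the shBry libraries, since only 1 shNC library reached its limit of 0.466 CPM, which applies before TMM. It thus entered the test through the group in which it was higher, and neither its p-value nor the 0.589% above allows for that. In these bulk libraries, a change in the share of cells with a transcript and a change in its amount per cell cannot be told apart.

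PTGS1 fell. It is on chromosome 9 from 122370530 to 122395703 on the plus strand. It had 9, 14 and 21 counts in shBry replicates 1, 2 and 3, or 0.485, 0.59 and 0.931 CPM, and 38, 34 and 30 counts in shNC, or 1.74, 1.61 and 1.50 CPM. The groups did not overlap. The mean level was 0.669 ± 0.233 CPM in shBry against 1.62 ± 0.12 CPM in shNC (SD, n = 3), 2.39-fold lower in shBry, or -1.26 on the log2 scale (SE 0.33, edgeR adjusted p = 0.0053). Both cyclooxygenase transcripts were scarce, and PTGS1 passed the filter through the shNC libraries, with 2 shBry libraries over its limit in CPM before TMM.

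Within a library, the level of PTGS2 can be set against that of PTGS1 without any scaling between libraries. Counts were divided by the length of the exons of each gene, 5269 bases for PTGS2 and 5791 for PTGS1 in GENCODE 29. The PTGS2 to PTGS1 ratio was 6.47, 10.8 and 6.33 in shBry replicates 1, 2 and 3. It was 0.289, 0.162 and 0.586 in shNC. PTGS1 was thus the more abundant cyclooxygenase transcript in each shNC library and PTGS2 in each shBry library, where it made up between 86.4% and 91.5% of both together, against between 13.9% and 37% in shNC. The geometric mean of the ratio was 25.2-fold higher in shBry (exact permutation test on the log2 ratio, two-sided, p = 0.1, the smallest that 3 against 3 libraries allow). Since PTGS2 was higher and PTGS1 lower in every shBry library, the ratio had to separate the groups. The p-value was thereby fixed and adds nothing to the results of the single genes. In shNC the ratio rests on 10, 5 and 16 counts of PTGS2 in replicates 1, 2 and 3. The plot of the ratio shows the 6 libraries.

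**Figure D1:**
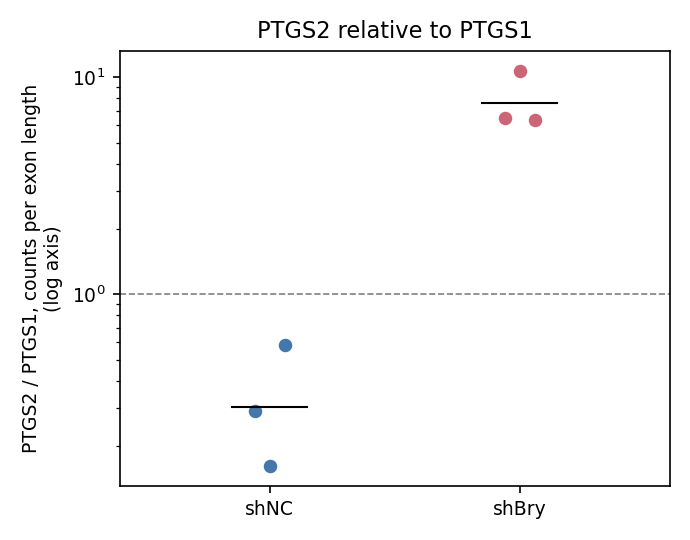
Ratio of PTGS2 to PTGS1, as counts per exon length, on a log axis; each point is 1 library (3 shNC, 3 shBry), the black line is the geometric mean and the dashed line marks equal levels. The shNC libraries lie between 0.162 and 0.586, and the shBry libraries between 6.33 and 10.8.

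PLA2G4A, which encodes the cytosolic phospholipase that frees arachidonic acid, lies next to PTGS2 on chromosome 1, from 186828953 to 186988981 on the plus strand. The gap between them is 148525 bases, with no coding gene and the noncoding gene PACERR in it. These neighbors moved in opposite directions. PLA2G4A had 2.85, 2.53 and 2.26 CPM in shBry replicates 1, 2 and 3 and 3.30, 3.88 and 5.21 CPM in shNC, without overlap, and shNC replicate 3 was the highest. It fell from 4.13 ± 0.979 to 2.55 ± 0.297 CPM (SD, n = 3), or -0.70 on the log2 scale (SE 0.23, edgeR adjusted p = 0.018). The call depended on single libraries. Without shNC replicate 3 the log2 fold change was -0.52 (edgeR adjusted p = 0.0816), and without shBry replicate 3 it was -0.62 (edgeR adjusted p = 0.0646).

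Per exon length, the 3 prostaglandin E synthase genes were the most abundant of the 10 in both groups, and of the tested genes they had the smallest log2 fold changes in size. PTGES encodes the microsomal, inducible prostaglandin E synthase that often works together with COX-2. It had 10.6, 11 and 12.9 CPM in shBry replicates 1, 2 and 3 and 15.1, 13.5 and 15.2 CPM in shNC. All shBry values were below all shNC values, but the log2 fold change of -0.34 (SE 0.13, edgeR adjusted p = 0.045) was under the fold change limit of 1.5, so that PTGES was not called. PTGES2, a membrane-associated synthase, had 160, 123 and 136 CPM in shBry and 109, 120 and 94.1 CPM in shNC, also without overlap. Its log2 fold change was 0.37 (SE 0.11, edgeR adjusted p = 0.01), under the limit as well.

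PTGES3 encodes the cytosolic synthase, better known as the HSP90 co-chaperone p23. It had 100, 174 and 126 CPM in shBry replicates 1, 2 and 3 and 125, 202 and 276 CPM in shNC. The groups overlapped, and the shNC libraries spread widely, with an SD of 75.4 CPM around a mean of 201. The log2 fold change of -0.59 (SE 0.23, edgeR adjusted p = 0.04) was just past both limits. Of the 12 alternative settings tried, 8 ended this call. The log2 fold change was -0.31 without shNC replicate 3 (edgeR adjusted p = 0.253), and DESeq2 gave an adjusted p of 0.177. In addition, 6.96% of the stretches of 50 bases in PTGES3 transcripts occur in transcripts of other genes, pseudogenes among them. PTGIS, which encodes prostacyclin synthase, had 1 count in shBry replicate 2 and 0 in the other libraries, so that a difference was not detectable at this depth.

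Of the receptor genes, PTGER4 fell and PTGER2 had too few counts to be tested. PTGER4 encodes EP4, which raises cyclic AMP on binding prostaglandin E, and lies on chromosome 5 from 40679498 to 40693735. It had 3.18, 3.75 and 3.46 CPM in shBry replicates 1, 2 and 3 and 6.23, 6.85 and 5.76 CPM in shNC. The replicates were close to each other and the groups well apart. PTGER4 fell from 6.28 ± 0.549 to 3.46 ± 0.287 CPM (SD, n = 3), 1.81-fold, or -0.86 on the log2 scale (SE 0.18, edgeR adjusted p = 0.00099). PTGER2, which encodes EP2, the other cyclic AMP-coupled receptor, had 0, 3 and 3 counts in shBry replicates 1, 2 and 3 and 6, 5 and 12 in shNC.

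HPGD, the gene of the dehydrogenase that inactivates prostaglandins, was also under the filter. It had 1, 6 and 0 counts in shBry replicates 1, 2 and 3 and 7, 9 and 13 in shNC. For PTGER2 and for HPGD every shBry library was below every shNC library (exact permutation test on CPM, two-sided, p = 0.1 for each, the smallest possible). In a fit without the filter, HPGD had a log2 fold change of -2.08 (edgeR adjusted p = 0.0246) and PTGER2 -1.97 (edgeR adjusted p = 0.0667). That fit also gave PTGES3, whose groups overlapped, an adjusted p of 1.4e-10. The depth thus allows little to be said on these 2 genes beyond their counts.

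Of the 10 genes, then, 1 was called higher (PTGS2), 4 were called lower (PTGS1, PTGES3, PLA2G4A and PTGER4), 2 were tested and not called (PTGES and PTGES2) and 3 were not tested (PTGER2, HPGD and PTGIS). A call needed a fold change over 1.5 together with an adjusted p under 0.05. Over all 15277 genes tested, 32.4% were called, 17.1% higher and 15.2% lower, so that calls as such were common in this comparison. Groups without overlap were common too, at 59.5% of tested genes. The plot of the 10 genes by library gives all values.

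**Figure D2:**
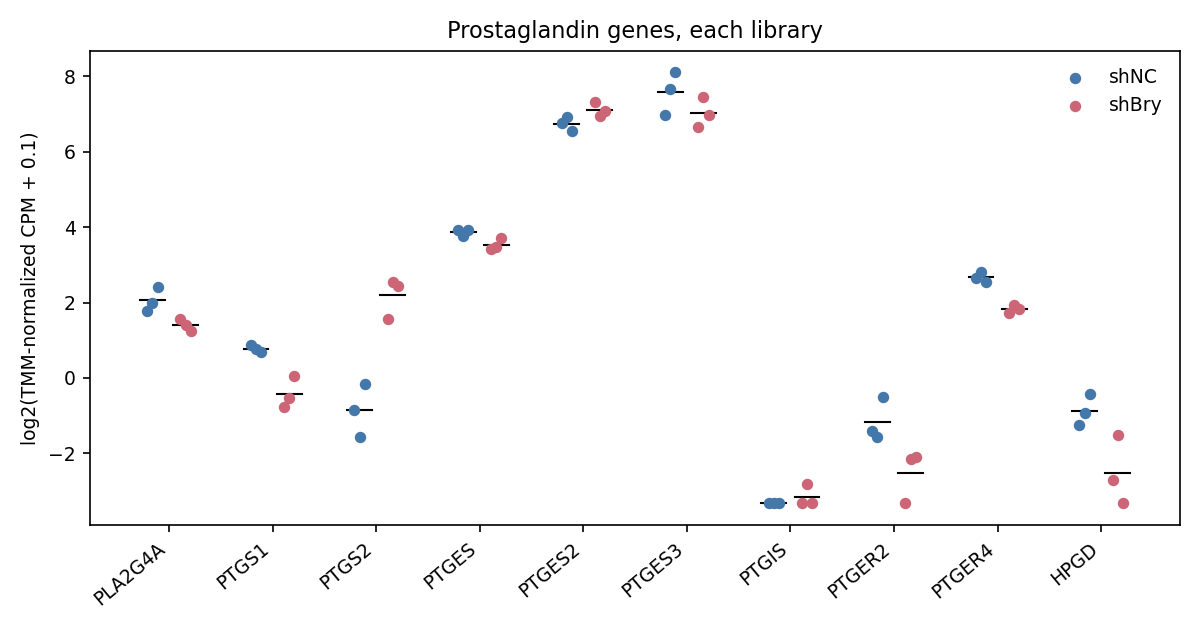
Level of the 10 prostaglandin genes in each library, as log2 of TMM-normalized CPM plus 0.1; each point is 1 library (shNC blue, shBry red) and the black lines are the means of the log2 values, n = 3. PTGS2 lies higher in all 3 shBry libraries, PTGS1 and PTGER4 lie lower, the PTGES3 groups overlap, and PTGIS has 1 count in all.

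**Figure D3:**
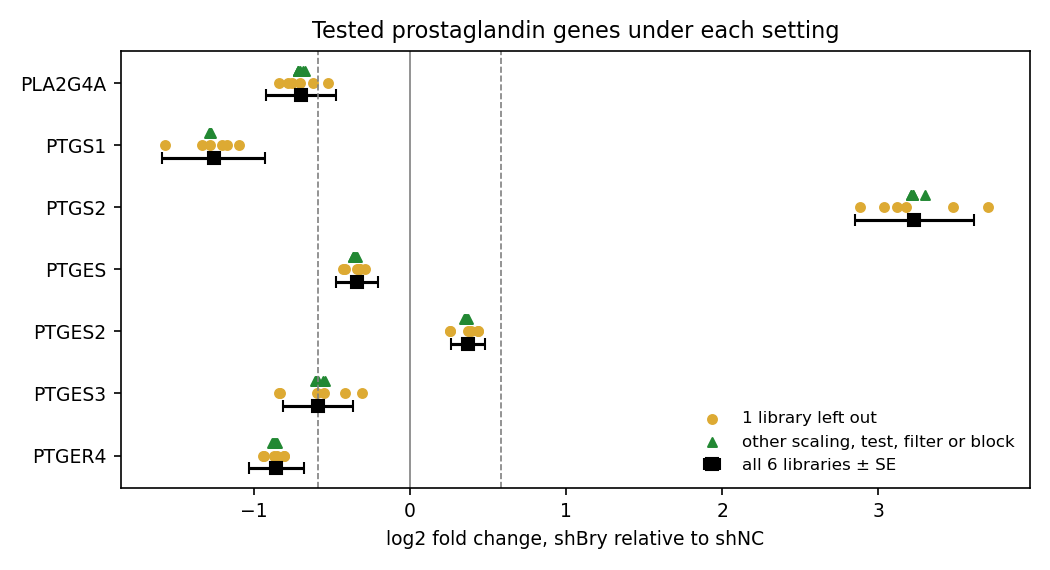
Log2 fold change of shBry relative to shNC for the 7 tested genes; squares with bars are the fit of all 6 libraries with its standard error, circles are fits with 1 library left out, triangles are other scaling, tests, filters or the replicate block, and dashed lines mark the fold change limit of 1.5. PTGS2, PTGS1 and PTGER4 stay past the limit in every fit shown, while points of PLA2G4A and PTGES3 cross it.

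Levels per exon length show which transcripts were present at all. In shNC the order was PTGES3 (59.1 ± 22.2 CPM per kb, SD, n = 3), PTGES2 (35.5 ± 4.28), PTGES (7.70 ± 0.512), PTGER4 (1.59 ± 0.139), PLA2G4A (1.44 ± 0.341), PTGS1 (0.279 ± 0.0206), PTGER2 (0.15 ± 0.081), PTGS2 (0.0946 ± 0.054) and HPGD (0.0842 ± 0.0305), with PTGIS at 0. The ranges of PTGES3 and PTGES2, of PTGER4 and PLA2G4A, of PTGER2 and PTGS2, and of PTGS2 and HPGD overlapped. In shBry, PTGS2 was at 0.885 ± 0.3 CPM per kb. Its range overlapped that of PLA2G4A at 0.886 ± 0.103 and that of PTGER4 at 0.874 ± 0.0726. It remained far below the synthase genes, of which PTGES had 6.07 ± 0.643 CPM per kb in shBry.

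The pentamer ATTTA, the core of the AU-rich elements through which short-lived mRNAs are held in check, was counted in the longest annotated 3′ UTR of each coding gene in GENCODE 29. PTGS2 had 22 copies in 2562 bases, or 8.59 per kb, and PLA2G4A had 4 in 473 bases, or 8.46 per kb. At least that density was found in 1.59% and 1.67% of 18293 coding genes with a 3′ UTR of at least 100 bases. PTGER4 followed with 6.63 per kb and PTGES3 with 5.28 per kb. PTGS1 had 0.95 per kb, PTGES 0.781 and PTGES2 none, against a median of 1.58 per kb over these coding genes. Of these 4 densest genes, PTGS2 was called higher and PLA2G4A, PTGER4 and PTGES3 lower in shBry, and a relation of density to direction was not tested.

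The genes whose pattern over the 6 libraries was most like that of PTGS2 were found by the root mean square difference of their log2 CPM, centered on each gene's mean. They were LOC100132498 (0.30 on the log2 scale), CCL20 (0.31), C5AR1 (0.37), AREG (0.43) and ADTRP (0.44). CCL20 encodes a chemokine, C5AR1 a receptor of complement C5a and AREG the growth factor amphiregulin. AREG had 13 ± 1.32 CPM in shBry and 1.83 ± 0.686 CPM in shNC (SD, n = 3), and CCL20 had 1.38 ± 0.51 and 0.0964 ± 0.0517 CPM. In shNC replicates 1, 2 and 3, LOC100132498 had 1, 0 and 2 counts, CCL20 2, 1 and 3, and C5AR1 3, 1 and 5. These genes passed the filter through the shBry libraries, and only genes past the filter were compared. The log2 CPM used a prior count of 2, which draws genes with so few counts together. The values also share libraries and a common group difference, and the likeness is a description.

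Further genes of arachidonic acid metabolism were examined with lists of 56 genes in all, of which 34 had enough counts to be tested. Of these, 12 were called, 7 higher and 5 lower in shBry, or 35.3% against the 32.4% of all tested genes. The median log2 fold change was 0.15, against 0.03 for all tested genes. Over all tested genes 17.1% were called higher and 15.2% lower, and the small counts of each list below stand against these shares.

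Among 16 other phospholipase and arachidonate supply genes, 9 were tested, 2 were called higher and none lower. PLA2G4C encodes a membrane-bound relative of the cytosolic phospholipase. It had 1092, 1236 and 1266 counts in shBry replicates 1, 2 and 3 and 113, 131 and 106 in shNC. It rose from 5.56 ± 0.552 to 55.7 ± 3.37 CPM (SD, n = 3), or 3.32 on the log2 scale (SE 0.12, edgeR adjusted p = 5.6e-11), while PLA2G4A fell. The groups were far apart and the replicates close to each other. ACSL4, which couples arachidonic acid to coenzyme A, rose from 51.9 ± 12.7 to 83.0 ± 12.4 CPM, or 0.68 on the log2 scale (edgeR adjusted p = 0.0014). Without shBry replicate 2 or shNC replicate 1 the log2 fold change of ACSL4 was 0.55 or 0.56, under the limit. MGLL (log2 fold change 0.19, edgeR adjusted p = 0.0415) was under the fold change limit. LPCAT3 (-0.21, edgeR adjusted p = 0.0911) and ANXA1 (0.05, edgeR adjusted p = 0.664) were not called either. PLA2G2A, PLA2G5 and PLA2G10, which encode secreted phospholipases, were at 0 counts in all libraries.

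Of 6 other prostanoid synthase genes, 4 were tested and 2 were called, both lower. AKR1C3, which makes prostaglandin F and also acts on steroids, fell from 19.5 ± 1.94 to 7.48 ± 0.958 CPM (SD, n = 3), or -1.38 on the log2 scale (edgeR adjusted p = 2.2e-06), and 4.53% of the stretches of 50 bases in its transcripts are shared with its close paralogs. CBR1, a carbonyl reductase that can convert prostaglandin E to prostaglandin F, had a log2 fold change of -0.74 (edgeR adjusted p = 2.2e-05), and 18.9% of its exon bases lie in exons of another gene. AKR1B1, the most abundant gene of this list, went the other way. It had 338 ± 35.1 CPM in shBry and 254 ± 15 CPM in shNC (SD, n = 3), without overlap. Its log2 fold change of 0.41 (edgeR adjusted p = 0.0014) was under the limit. TBXAS1 had a log2 fold change of -0.25 (edgeR adjusted p = 0.391). HPGDS was at 0 counts and PTGDS at 3 counts or fewer in every library.

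Of 7 other prostanoid receptor genes, 3 were tested, and TBXA2R, the thromboxane receptor gene, was called lower with a log2 fold change of -0.59 (edgeR adjusted p = 0.003), close to the limit. PTGIR and PTGFR, the prostacyclin and prostaglandin F receptor genes, had log2 fold changes of 0.24 and -0.06 and were not called. Of 5 genes of transport and breakdown, 4 were tested. CBR3 was called lower, with a log2 fold change of -1.14 (edgeR adjusted p = 2.5e-05), and an antisense gene overlaps 42.2% of its exon bases. The exporter gene ABCC4 had 36.3 ± 2.46 CPM in shBry and 24.7 ± 3.59 CPM in shNC, or 0.56 on the log2 scale (edgeR adjusted p = 0.0014), just under the limit. The reductase gene PTGR2 had a log2 fold change of 0.37 (edgeR adjusted p = 0.027), under the limit as well. PTGR1, with 0.11 (edgeR adjusted p = 0.364), was not called either.

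Some enzymes of the lipoxygenase and leukotriene branch use the same arachidonic acid. Of 14 genes of this branch, 6 were tested, 3 were called higher and none lower, where 17.1% of all tested genes were called higher. With so few genes, and with ALOX5AP entering the test through shBry alone, the count is no measure of the branch. ALOX5AP encodes FLAP, which presents arachidonic acid to 5-lipoxygenase. It had 244, 260 and 245 counts in shBry replicates 1, 2 and 3 and 4, 2 and 2 in shNC. It was 90.9-fold higher in shBry by the summed counts (95% interval from 45.9 to 211, exact binomial, which pools the libraries and covers counting error only), with 11.7 ± 1.29 CPM against 0.126 ± 0.0497 (SD, n = 3, edgeR adjusted p = 3.5e-10). The gene passed the filter through the shBry libraries alone, since its shNC levels were at most 0.183 CPM, and could enter the test only with a difference between the groups. ALOX5, the 5-lipoxygenase gene itself, had no more than 1 count in any library, and LTC4S no more than 8. ALOX12B and ALOXE3, lipoxygenase genes known from the skin barrier that lie side by side on chromosome 17, rose with log2 fold changes of 1.20 and 1.08 (edgeR adjusted p = 2.8e-06 and 7.3e-06), and 26.8% of the ALOX12B exon bases lie in exons of another gene. LTA4H (log2 fold change 0.31, edgeR adjusted p = 0.0075) was under the fold change limit, and LTB4R (0.24, edgeR adjusted p = 0.127) was not called either.

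Of 8 genes for proteins that bind the PTGS2 mRNA or AU-rich mRNAs in general, 8 were tested, 2 were called higher and 1 lower. ZFP36, which encodes tristetraprolin, a factor that speeds the decay of such mRNAs, rose from 19 ± 1.17 to 45.9 ± 1.45 CPM (SD, n = 3), or 1.27 on the log2 scale (edgeR adjusted p = 1.6e-07). Its relative ZFP36L1 rose with a log2 fold change of 0.72 (edgeR adjusted p = 2.3e-06). HNRNPD, which encodes AUF1, fell with a log2 fold change of -0.64 (edgeR adjusted p = 2.4e-05). ELAVL1, which encodes the stabilizing protein HuR, had 145 ± 6.56 CPM in shBry and 171 ± 8.09 CPM in shNC. Its log2 fold change of -0.24 (edgeR adjusted p = 0.018) was under the limit. ZFP36L2, with 0.49 (edgeR adjusted p = 0.001), was under the limit as well. KHSRP (log2 fold change 0.00), CELF2 (-0.11) and TIA1 (-0.19) were not called.

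**Figure D4:**
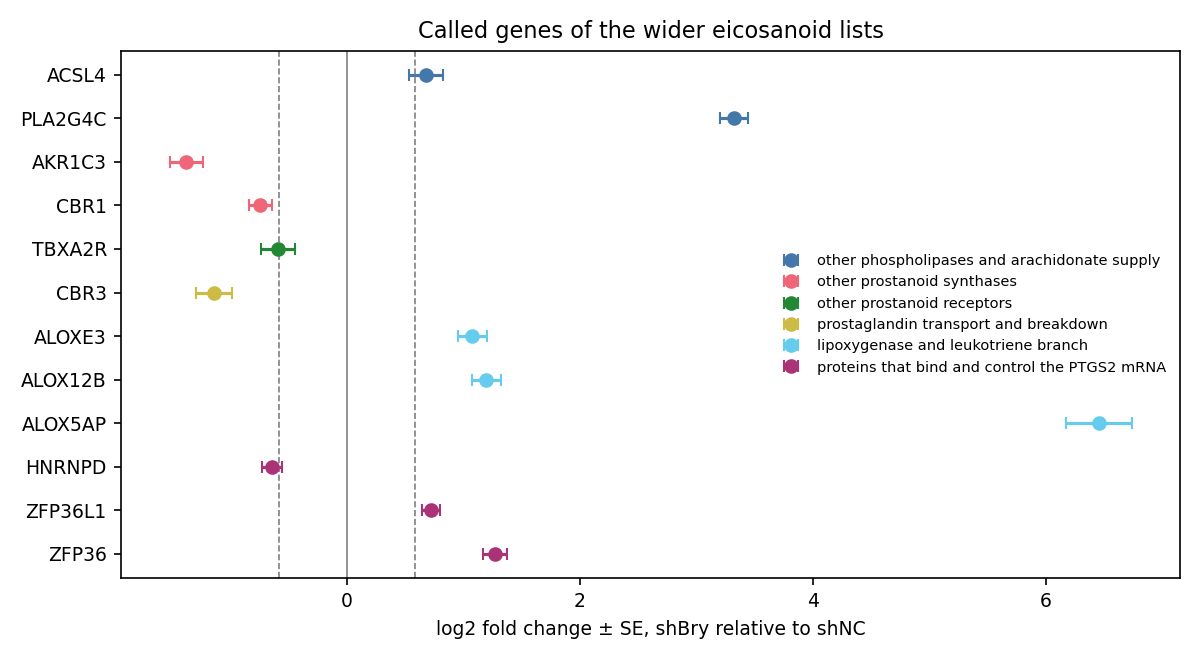
Log2 fold change of shBry relative to shNC, with standard errors, for the 12 called genes of the further lists, colored by list; dashed lines mark the fold change limit of 1.5. PLA2G4C and ALOX5AP stand out on the high side, with 3.32 and 6.45, and AKR1C3 and CBR3 are lowest, with -1.38 and -1.14.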

How the data were processed

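RNA-Sequence libraries of MDA-MB-231 shBry (n = 3) and shNC (n = 3) cells were grouped by their hairpin labels. The authors deposited raw counts, the reads counted per gene symbol in each library, without normalization. The submitters' processing notes name HISAT2 2.0.4, HTSeq and GRCh38. The annotation and the strand setting are not given in the sources used here, so that overlapping genes could share counts.

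Here edgeR 4.0.16 (R 4.3.3) was used to filter genes (filterByExpr, minimum count 10), to scale libraries by TMM and to test the groups by quasi-likelihood, with Benjamini-Hochberg adjustment. The standard error is the log2 fold change divided by the square root of F. The alternatives used DESeq2 1.42.0 and limma 3.58.1. The fits were tested on simulated data first. Gene models were those of GENCODE 29 (GRCh38), joined by symbol, and promoters came from RefSeq, with 9 of the 10 genes matched.

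The genes, the lists and the alternatives were chosen with earlier results of these data known. All 10 genes, up to 4 called genes of each further list by smallest adjusted p, and the 5 genes most like the called member with the smallest adjusted p were named. Other genes of the lists were named after their values were seen.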

Additional observations from a re-analysis of the deposited data

How the results depend on the processing

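The signs of all 19 log2 fold changes recomputed held under every alternative that could be fitted. At the fold change limit of 1.5, PTGS2, PTGS1 and PTGER4 stayed called wherever they were tested, with log2 fold changes between 2.88 and 3.71, -1.57 and -1.09, and -0.94 and -0.80. Requiring 10 counts in every library removed PTGS2 and PTGS1 and left 3 prostaglandin genes called. With a fold change limit of 2, 2 prostaglandin genes, 7 genes of the further lists and 2297 of all genes were called, with PTGER4, at 1.81-fold, not among them. Without a limit, 7 prostaglandin genes (2 higher and 5 lower), 19 genes of the further lists and 8139 of all genes were called. In fits that left out 1 library, 3 to 5 prostaglandin genes were called, with 3 without shBry replicate 3 or shNC replicate 3, and the log2 difference of the PTGS2 to PTGS1 ratio lay between 4.21 and 5.14. The PTGES3 call was also lost without TMM (adjusted p = 0.0725), with limma-voom (0.0587) and without shBry replicate 1, shBry replicate 3 or shNC replicate 2 (0.0969, 0.107 and 0.0717). The cause was not tested. With the replicate number as a block, 4914 genes, 4 prostaglandin genes and 12 genes of the further lists were called, and PTGES3 had a log2 fold change of -0.55, under the limit. Whether same-numbered libraries were prepared together is not given, and correlations over so few libraries cannot settle it. The deviations of same-numbered libraries from their group means correlated at 0.246, -0.129 and -0.054. Those of differently numbered libraries correlated at between -0.296 (shBry replicate 1 with shNC replicate 3) and 0.307 (shBry replicate 2 with shNC replicate 3). Depth limits PTGER2, HPGD and PTGIS, in shNC also PTGS2 and in shBry also PTGS1.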
